A study of Sus scrofa with 9 samples.

Results

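SLPI, the secretory leukocyte protease inhibitor, was examined in the longissimus dorsi, a back muscle, of Bama minipigs. Its probes were chosen by accession: every non-control probe whose transcript accession, NM_213870, names SLPI in the pig RefSeq gene table was taken. SLPI is 1 of the 3196 genes that could be named on the array. It is read by 7 of the 43603 probes, and all 7 were among the 27922 tested. The gene was singled out because it was lower after the diet in these same arrays, so the diet difference of SLPI is described here without a test.

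The 6 animals of the HFHSD group ate a high-fat high-sucrose diet of 53% basal feed, 37% sucrose and 10% lard for 23 months. The 3 animals of the CD group ate standard chow over the same period. All were Bama minipigs of either sex, 6 months old at the start, gonadally intact, housed singly and fed restricted amounts. The labels give neither the sex of each animal nor a strain genotype, and the growth protocol speaks of 6 CD animals where the series holds 3 arrays. One single-dye Agilent array was run per animal, so the spread within a group includes the variation between animals.

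SLPI is a small secreted protein made of a pair of WAP (whey acidic protein) domains. It blocks serine proteases that leukocytes release, above all neutrophil elastase and cathepsin G, and so shields tissue and growth factors such as progranulin from cleavage. Epithelial cells of mucosal surfaces are its best known source, and neutrophils and macrophages also make it. In human and mouse monocytes and macrophages it also restrains signalling through the transcription factor NF-kB.

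The arrays detected muscle RNA throughout. Of 25 skeletal muscle marker genes 22 were tested, and all 22 were well above background on all 9 arrays by the scanner software's own call. The share of probes well above background lay between 51.2% and 68.9% on 8 arrays and was 36.8% on CD 1. The arrays came from 3 slides. HFHSD 5 and HFHSD 6 shared slide 1, which was scanned on a different day and held no CD array. CD 1 was on slide 2 together with HFHSD 1, HFHSD 3 and HFHSD 4. The remaining CD arrays, CD 2 and CD 3, were on slide 3 with HFHSD 2.

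SLPI was bright in every animal. The brightest probe, A_72_P088391, had a processed signal of 1061, 1502, 969.8, 1826, 1545 and 2446 in HFHSD 1 to HFHSD 6, and of 3072, 2766 and 4922 in CD 1 to CD 3, over local backgrounds of 30 to 35 units. By this probe every CD array was thus above every HFHSD array before any scaling between arrays. On A_72_P759806, A_72_P734749 and A_72_P745809 the groups overlapped before scaling. There HFHSD 6 had 2260, 2266 and 784.4, and the lowest CD array had 2188, 1983 and 724.6. All 7 probes were well above background on 6 of 6 HFHSD and 3 of 3 CD arrays, and 0 of their spots were saturated.

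Signals were then put on a log2 scale relative to each array's 75th percentile, so that a value of 0 is a probe at that percentile. On this scale the brightest probe was 2.62, 2.87, 2.54, 3.42, 2.70 and 3.05 in HFHSD 1 to HFHSD 6, and 4.52, 3.63 and 4.58 in CD 1 to CD 3. CD 1 and CD 3 stood well above all others, whereas CD 2 lay 0.21 above HFHSD 4, the highest HFHSD array. The means were 2.87 ± 0.33 (SD, n = 6) in HFHSD and 4.24 ± 0.53 (SD, n = 3) in CD. The HFHSD minus CD difference was -1.38 log2 (SE 0.28), a level 2.60-fold lower in HFHSD. Since the muscle was measured as bulk tissue, fewer cells that make SLPI and less SLPI RNA per cell cannot be told apart.

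On this scale the other 6 probes gave a similar picture. Their differences ran from -1.08 (SE 0.28) for A_72_P759806 to -1.28 (SE 0.28) for A_72_P757455, and the median over the 7 probes was -1.25. All 7 were lower in HFHSD, where 52.1% of all tested probes were lower by any amount. For 6 of the 7 every HFHSD value lay below every CD value, as was the case, in this direction, for 6.11% of all tested probes. Nothing follows from either count, because this contrast chose the gene and the probes read the same transcript. The exception was A_72_P759806, which had 3.41 in HFHSD 4 and 3.29 in CD 2.

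**Figure D1:**
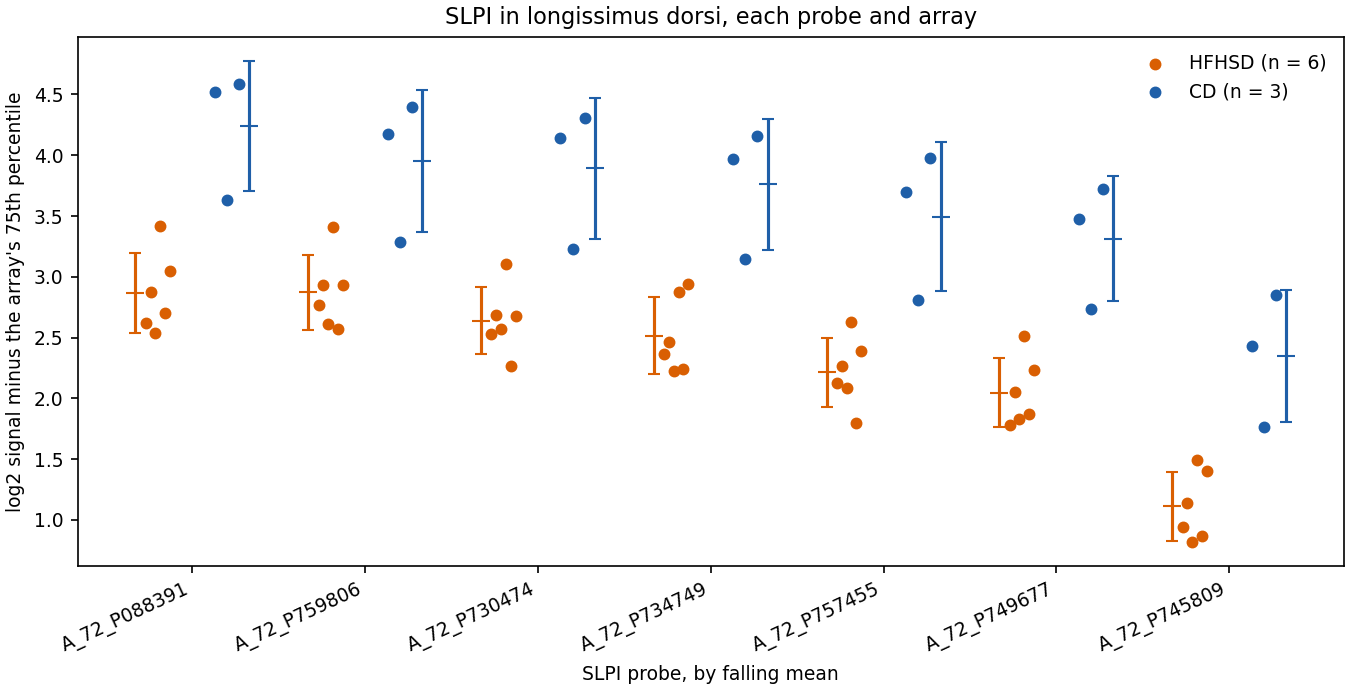
Signal of the 7 SLPI probes (log2 minus the array's 75th percentile, vertical axis) in each array, with HFHSD arrays left and CD arrays right of each probe name, and bars for the mean ± SD. The 6 HFHSD arrays of the brightest probe sit between 2.54 and 3.42, below CD 2 at 3.63 and well below CD 1 and CD 3.

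Averaged over the 7 probes, SLPI was lowest in HFHSD 5 at 2.04. HFHSD 3 followed at 2.10, HFHSD 1 at 2.16, HFHSD 2 at 2.35, HFHSD 6 at 2.52 and HFHSD 4 at 2.78. CD 2 came next at 2.94, and then CD 1 at 3.77 and CD 3 at 4.0. HFHSD 4 and CD 2 were 0.17 apart, less than the pooled SD within groups of 0.38, so these neighbours in the order did not differ beyond the spread between animals. Between CD 2 and CD 1 the gap was 0.83. The mean over probes was 2.32 ± 0.28 (SD, n = 6) in HFHSD and 3.57 ± 0.56 (SD, n = 3) in CD, a difference of -1.25.

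The probes ordered the arrays nearly alike. CD 2 was the lowest and CD 3 the highest CD array on all 7 probes, and HFHSD 4 was the highest HFHSD array on 6 of them. On A_72_P734749 the highest was HFHSD 6, at 2.94. After the mean of each diet group was taken away, the 21 pairs of probes correlated over the 9 arrays with a median Pearson r of 0.95 and a lowest r of 0.89. The probes share the hybridised RNA, so this describes how well they track 1 transcript and adds no animals.

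The difference was present on both slides that held both diets. On slide 2 the 3 HFHSD arrays were 1.66 log2 units below CD 1 by the brightest probe (HFHSD minus CD -1.66). On slide 3 HFHSD 2 was below the mean of CD 2 and CD 3 by 1.23 (HFHSD minus CD -1.23). Without slide 1 the difference was -1.38, and without CD 1, the array with the fewest detected probes, it was -1.24. Leaving out CD 2 made it -1.68 and leaving out CD 3 made it -1.21. A different background correction (normexp on the median signals, then percentile scaling) gave -0.93, while the median of all tested probes was -0.17 in that setting, so that SLPI lay 0.76 below it (SLPI minus median -0.76).

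**Figure D2:**
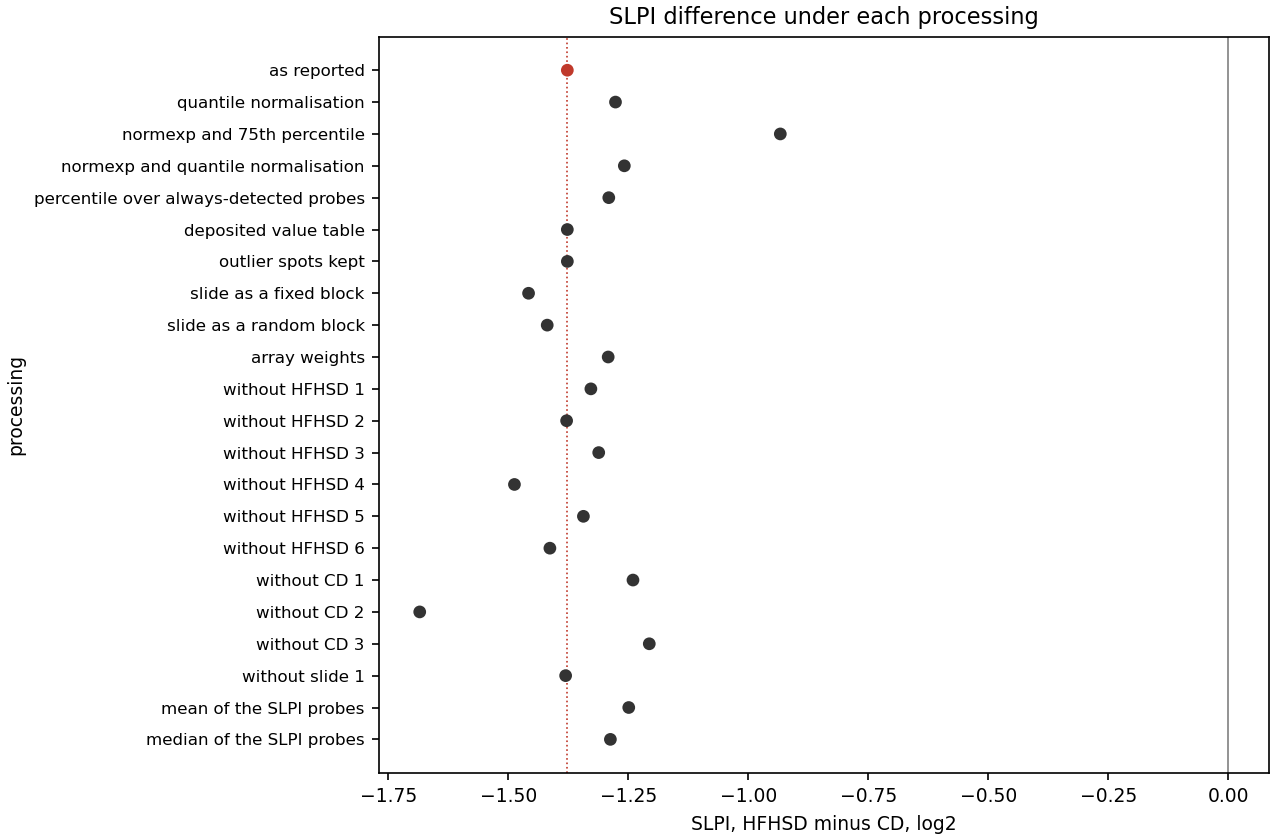
HFHSD minus CD difference of SLPI (log2, horizontal axis) as reported, in red, and under each of the 21 other ways of processing, 1 row each; all rows but those for the mean and median of the probes show the brightest probe. All values lie between -1.68 without CD 2 and -0.93 with normexp and percentile scaling.

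The WAP domain genes nearest to SLPI in kind are other secreted protease inhibitors. Besides SLPI, 4 of 20 listed family members had a probe with a gene name and 3 were tested; the probe of WAP, the whey acidic protein of milk, was well above background on 1 array and was left out. None of the 3 passed, by limma with Benjamini-Hochberg adjustment over all tested probes at 0.05, and 2 had an unadjusted p under 0.05. The named genes of the whole array give the background for such counts: 0.498% of 2613 genes, each read by its brightest probe, were called higher in HFHSD and 0.498% were called lower. Over all tested probes 1.23% were called in either direction. An unadjusted p under 0.05 in the limma fit was far more common, at 18.4% of the 2613 genes (481). Counts at an unadjusted p here and below are to be read beside that share.

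PI3, which encodes elafin, an elastase inhibitor with 1 WAP domain, had higher values in HFHSD, the other direction from SLPI. Its signal was -2.31, -1.62 and -0.34 (lowest, median and highest) in HFHSD, and -4.01, -3.74 and -2.87 in CD 1 to CD 3. The groups did not overlap, as held in this direction for 4.8% of all tested probes. The difference of 1.99 (SE 0.46) missed the threshold (limma adjusted p = 0.0699). PI3 was read by a single dim probe, well above background on 6 of 6 HFHSD and 2 of 3 CD arrays.

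SPAI-2, a pig WAP protein known as an inhibitor of the sodium pump, also had higher values in HFHSD. Its brightest probe had -1.84, -1.51 and 0.67 (lowest, median and highest) in HFHSD, and -2.08, -4.63 and -2.94 in CD 1 to CD 3. All 3 of its probes were higher in HFHSD without overlap, as were 4.8% of all tested probes, with differences between 1.80 and 2.18 (limma adjusted p = 0.101 to 0.170), and each was well above background on 6 of 6 HFHSD and 1 of 3 CD arrays. They thus met the filter through HFHSD, the group in which they are high, and their CD levels are mostly not above background. PI3 and SPAI-2 are closely similar in sequence in the pig, and whether their probes read 1 or both transcripts was not tested. With normexp and percentile scaling PI3 was 0.36 and SPAI-2 0.65.

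WFDC2, a WAP protein of epithelia, had a difference of -0.83 (SE 0.43, limma adjusted p = 0.384) by its brightest probe and of -0.27 by the other. CD 1 alone, at 1.11, lay clear of the remaining arrays, which ran from -1.34 to -0.03 in HFHSD and were -0.44 in CD 2 and -0.86 in CD 3. Without CD 1 its difference was -0.25.

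**Figure D3:**
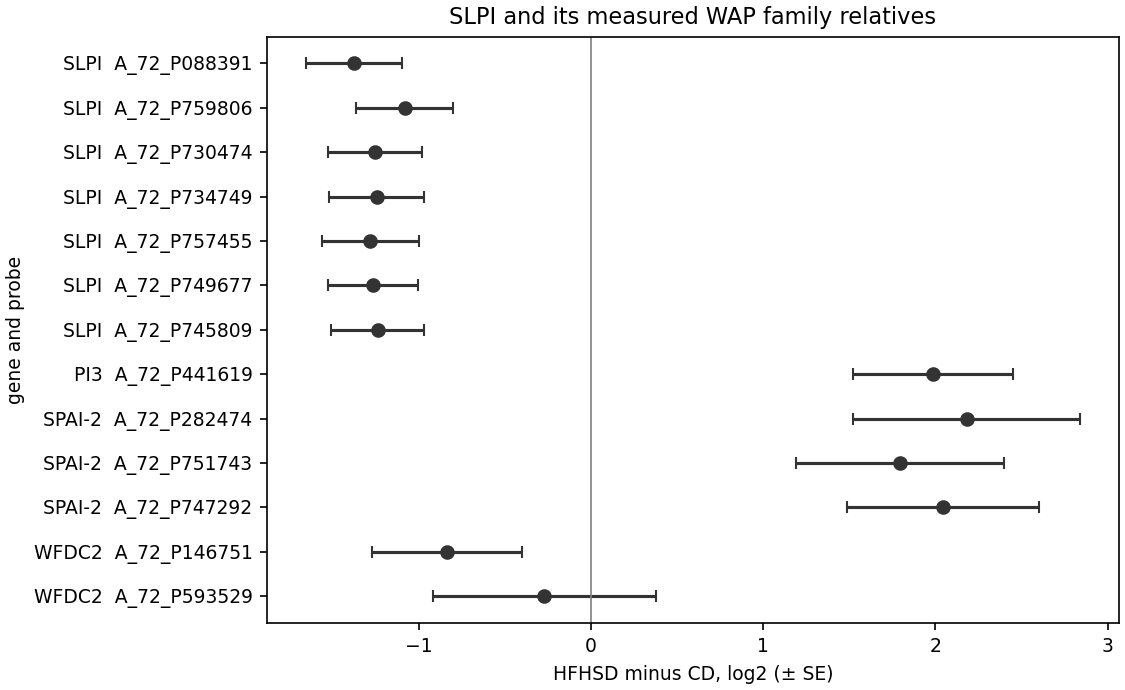
HFHSD minus CD difference (log2, horizontal axis, with the SE of the limma fit) of each probe of SLPI and of the 3 tested WAP family relatives. The 7 SLPI probes lie between -1.38 and -1.08, and the 4 probes of PI3 and SPAI-2 between 1.80 and 2.18.

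Several of these genes lie side by side in the pig genome, as in human and mouse, where SLPI belongs to a cluster of WAP genes. Among the 15 protein-coding genes on either side of SLPI in the Sscrofa11.1 gene order, 9 were tested. This set was added after the family values had been seen. HFHSD values were higher for 4 (PI3, SPAI-2, PKIG and LOC100158011) and lower for 5 (SDC4, DBNDD2, TOMM34, PTI and WFDC2). In the limma fit 0 of 9 passed and 5 had an unadjusted p under 0.05. PI3 and SPAI-2, whose values prompted the set, are 2 of these 5, and LOC100158011, another, was well above background on 4 HFHSD and 0 CD arrays, so nothing is read from the count. SDC4, a cell surface proteoglycan, had -0.82 (SE 0.28, limma adjusted p = 0.180) and DBNDD2 had -0.84 (SE 0.24, limma adjusted p = 0.112).

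Serine proteases of the classes that hold the targets of SLPI could be read only in small part, and not every listed gene is a known target. Of 23 leukocyte, mast cell and digestive serine proteases 5 had a named probe and 4 were tested. The genes of neutrophil elastase and cathepsin G were not among them. None of the 4 passed in the limma fit, and 0 had an unadjusted p under 0.05. The granzymes, proteases of cytotoxic lymphocytes, are not taken here as targets of SLPI. They had 0.36 (GZMB), -0.26 (GZMH) and 0.20 (GZMM), and MCT7, a mast cell tryptase, had -0.26.

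Genes listed here as binding partners or protected substrates of SLPI had no call, and their relation to SLPI was not tested. Of 9 genes 4 were tested, with 0 passing and 0 at an unadjusted p under 0.05. GRN, the gene of progranulin, which SLPI protects from elastase in mice and humans, averaged 5.61 ± 0.26 (SD, n = 6) in HFHSD and 5.84 ± 0.34 (SD, n = 3) in CD, a difference of -0.24 (limma adjusted p = 0.677) that became 0.22 under normexp with percentile scaling. The 4 GRN probes ran from -0.54 to -0.21. ANXA2, an annexin that binds SLPI on macrophages, differed by 0.08 by its brightest probe and by up to 0.59 over its 3 probes, the proteoglycan gene DCN by 0.15 and TGFB1, a growth factor, by 0.09. These 3 signs changed when single arrays were left out, and that of TGFB1 also with normexp and percentile scaling.

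Other inhibitors of serine proteases were mostly higher in HFHSD in value, without a call. Of 39 genes 15 were tested, and 12 had higher values in HFHSD, with a median difference of 0.25, against 42.4% of all tested genes higher and a median of -0.08. None passed in the limma fit and 0 had an unadjusted p under 0.05. SERPINA3-2, of the antichymotrypsin family, had 1.15, ITIH2, a plasma inhibitor chain, 0.86, SERPINA1, the antitrypsin that also blocks elastase, 0.57, and SERPINE2, a thrombin and plasminogen activator inhibitor, 0.47. The first 3 of these turned below 0 with normexp and percentile scaling, at -0.12, -0.10 and -0.31.

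Of 12 inhibitors of cysteine and metalloproteases 5 were tested, with 0 passing and 2 at an unadjusted p under 0.05. TIMP1, an inhibitor of matrix metalloproteases, averaged 3.45 ± 0.30 (SD, n = 6) in HFHSD and 4.01 ± 0.18 (SD, n = 3) in CD, a difference of -0.56 (limma adjusted p = 0.239). CAST, which encodes the calpain inhibitor calpastatin, differed by 0.43, the cystatin CSTB by -0.43 and CST3 by 0.24.

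Genes of the NF-kB pathway and of cytokines that induce SLPI or that it restrains had values on both sides, 12 higher and 12 lower in HFHSD, with a median difference of 0.02 over 24 tested genes of 38. EGF, a growth factor, rose and TNFRSF1A, a receptor of tumour necrosis factor, fell, and the other 22 did not pass. EGF had 2.63, 3.07 and 3.42 (lowest, median and highest) in HFHSD, and 2.11, 1.49 and 1.70 in CD 1 to CD 3, with a limma adjusted p of 0.0302. TNFRSF1A had 2.62, 2.87 and 3.46 in HFHSD, and 4.20, 3.98 and 4.80 in CD 1 to CD 3, with a limma adjusted p of 0.0331. This was the only 1 of its 3 probes to pass, and their differences ran from -1.40 to -0.62, while 2 of 3 EGF probes passed, with 0.83 to 1.30. Neither group pair overlapped, as held for 4.8% of all tested probes with higher and 6.11% with lower values in HFHSD. Both genes were named for their small p, so nothing is read from this. With slide as a fixed block both lost the call (limma adjusted p = 0.0875 each), and within slides 2 and 3 EGF differed by 0.84 and 1.42, and TNFRSF1A by -1.13 and -1.78. The inducers IL6 and TNF had differences of 1.01 (limma adjusted p = 0.454) and 0.83 (limma adjusted p = 0.593). The cytokine genes IL1B and IL1A of this list had 0.36 (limma adjusted p = 0.705) and -0.10 (limma adjusted p = 0.975). NFKBIA, the inhibitor of NF-kB that SLPI stabilises in human monocytes, had 0.27 (limma adjusted p = 0.551).

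**Figure D4:**
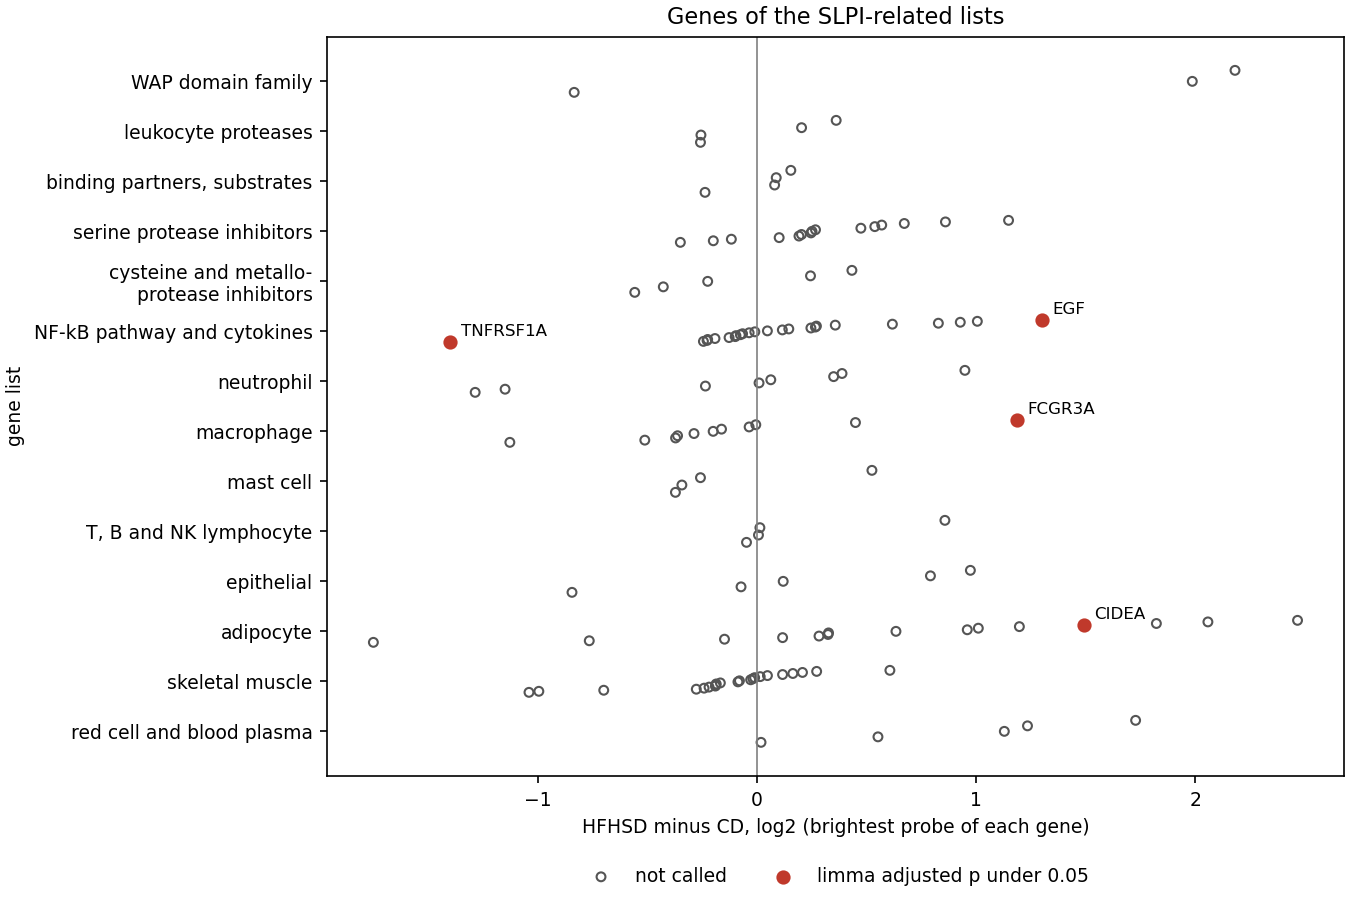
HFHSD minus CD difference (log2, horizontal axis) of each tested gene of the 14 lists, by its brightest probe, with genes past a limma adjusted p of 0.05 filled in red. EGF, FCGR3A and CIDEA are called higher and TNFRSF1A lower; the family row shows PI3 and SPAI-2 at 1.99 and 2.18.

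Markers of cells that make SLPI were read beside it. The neutrophil list had 8 tested genes of 26, of which 5 were higher and 3 lower in HFHSD, and its summed signal was 3.30 to 8.24 times the array's 75th percentile in HFHSD and 3.37 to 9.58 times in CD. S100A8 and S100A9, abundant neutrophil proteins, differed by 0.01 and 0.06, the granule protein gene LCN2 by 0.95 and the protegrin NPG4 by -1.29; 0 of the 8 passed and 1 had an unadjusted p under 0.05. The macrophage list had 9 of 11 tested genes lower in HFHSD and a median of -0.20. Of all tested genes 42.4% were higher in HFHSD, and their median was -0.08. The summed signal of the macrophage list was 16.1 to 38.1 in HFHSD and 21.8 to 36.8 in CD. CD163, a scavenger receptor of macrophages, had -1.13 (limma adjusted p = 0.347), while FCGR3A, an immunoglobulin receptor, rose by 1.19 (SE 0.21, limma adjusted p = 0.0338; 0.0701 once slide was fitted as a fixed block, with 0.88 within slide 2 and 1.05 within slide 3). The part of macrophages in the SLPI difference was not tested.

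Few epithelial markers could be tested. Of 14 genes 5 were tested and 0 passed, 0 having an unadjusted p under 0.05. EPCAM, the defining epithelial adhesion molecule, was not well above background on the 3 arrays needed for testing. KRT8 and CLDN7 were well above background on 6 of 6 HFHSD and 3 of 3 CD arrays. CDH1 was so on 5 HFHSD arrays and 1 CD array, and CLDN4 on 2 and 1. The summed signal of the 5 genes was 2.94 to 5.70 in HFHSD and 2.24 to 6.76 in CD. The mast cell list gave 4 tested genes of 9 with 0 passing (KIT 0.52, FCER1G -0.34, MS4A2 -0.37), and the lymphocyte list 4 of 18 with 0 passing; 0 genes of either list had an unadjusted p under 0.05. Of those 4 lymphocyte genes CD3G had 0.86, on 3 of 6 HFHSD and 0 of 3 CD arrays well above background, and CD2, CD3D, CD4, CD8A, CD79A and MS4A1 were among those too dim to be tested.

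Adipocyte genes had mostly higher values in HFHSD, with 1 call and 6 at an unadjusted p under 0.05. HFHSD values were higher for 12 of 15 tested genes, with a median of 0.63, against 42.4% of all tested genes. The summed signal of the adipocyte genes was 122.1 to 378.1 in HFHSD and 103.4 to 127.2 in CD. CIDEA, a lipid droplet protein, rose by 1.49 (SE 0.28, limma adjusted p = 0.0378; 0.0886 once slide was fitted as a fixed block, with 1.09 within slide 2 and 2.24 within slide 3), and the adipokine ADIPOQ had 2.47 (limma adjusted p = 0.113). Of the list of red cell and plasma genes 5 of 14 were tested, all of them genes of plasma proteins. By their brightest probes all 5 were higher in HFHSD, ALB with 1.73 and APOA1 with 0.55, but TF, with 1.13, had 2 of its 3 probes lower, down to -0.35, and TTR differed by 0.02. There were 0 passing and 1 at an unadjusted p under 0.05, and their summed signal was 2.41 to 5.23 in HFHSD and 1.84 to 2.82 in CD. Of the muscle markers 15 of 22 were lower in HFHSD with a median of -0.08, and the median of all tested genes was also -0.08. Of these markers 0 passed and 3 had an unadjusted p under 0.05, namely TNNT3 (-1.04), MYH2 (-1.0) and TPM2 (-0.70). MYH4, a fast myosin, had 0.61. The part of these adipocyte, plasma and muscle genes in the SLPI difference was not tested.

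Within the diet groups, the genes whose values followed SLPI most closely over the 9 arrays were sought among the 2612 other tested genes, each by its brightest probe and as deviations from the mean of its diet group. These correlations describe the arrays and carry no test, since the highest of so many values over so few arrays is high by selection. SLC16A1, a lactate and pyruvate transporter, had the highest Pearson r, at 0.96 (Spearman 0.97). SLC30A1, a zinc exporter, had 0.95, TNIP1, a binding partner of the NF-kB inhibitor A20, 0.93, PLG, which encodes plasminogen, 0.90, and CTH, an enzyme of cysteine synthesis, 0.88. At the other end stood NPY1R, a neuropeptide Y receptor, at -0.89, HPS3, of lysosome-related organelles, at -0.87, and TNC, the matrix protein tenascin C, at -0.86.

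The shared pattern was a low CD 2 and a high HFHSD 4. SLPI lay 0.61 below its group mean in CD 2 (deviation -0.61) and 0.55 above in HFHSD 4, and SLC16A1 had -0.76 and 0.76 in the same arrays. Over the 6 HFHSD arrays alone, r with SLPI was 0.92 for SLC16A1, 0.91 for SLC30A1, 0.85 for TNIP1, 0.82 for PLG and 0.74 for CTH, and -0.83 for NPY1R and -0.76 for HPS3 and TNC. With each array left out in turn, all 8 had their weakest r without CD 2, which ran from 0.92 (SLC16A1) to 0.74 (CTH) for the genes most like SLPI, and was -0.82 for NPY1R, -0.71 for HPS3 and -0.72 for TNC. None of the 8 genes passed for diet (limma adjusted p = 0.434 to 0.991), SLC16A1 having a difference of -0.60 and TNIP1 of 0.04. PLG was dim, well above background on 4 of 6 HFHSD and 1 of 3 CD arrays.

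**Figure D5:**
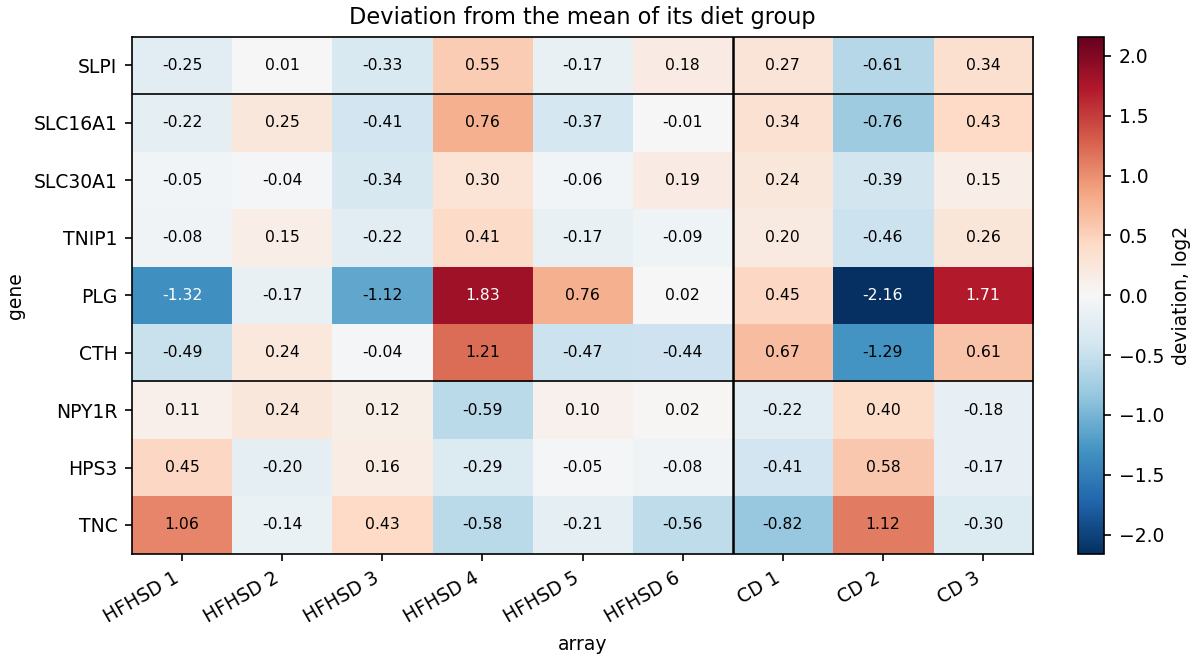
Deviation (log2, colour and number) of SLPI and of the 5 genes most like it and 3 most opposite to it from the mean of their own diet group, in each array (columns, HFHSD then CD). SLPI is at -0.61 in CD 2 and 0.55 in HFHSD 4, and TNC at 1.12 and -0.58.

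Marker lists were also read as a whole, beside the median of all tested genes, since the genes above were picked as extremes. The 11 tested macrophage genes had a median r of 0.31 with SLPI within diet groups and ranged from 0.07 (SPP1) to 0.59 (CD14), all above 0. Over the HFHSD arrays alone, r was -0.55 for SPP1, -0.16 for AIF1, -0.07 for LYZ and -0.006 for FCGR3A. The remaining macrophage genes ran from 0.24 (CD163) to 0.42 (C1QB) there, so the shared sign depended on including the CD arrays. The 8 neutrophil genes had a median of 0.19, ranging from -0.44 (LCN2) to 0.55 (S100A9). The 15 adipocyte genes had a median of -0.09 and a wide range, from -0.65 to 0.85. The 5 plasma protein genes had the highest median of the 14 lists, 0.40, ranging from -0.20 (APOA1) to 0.86 (FGG). Only 1 of these 5 genes was well above background on all arrays. FGG was dim, well above background on 5 of 6 HFHSD and 1 of 3 CD arrays. The 22 muscle genes had a median of 0.26, ranging from -0.42 (RYR1) to 0.70 (MYL2). Over all 2612 genes the median was 0.04. PI3 and SPAI-2 had r of 0.07 and 0.22 with SLPI within diet groups.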

How the data were processed

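Longissimus dorsi RNA of 9 minipigs was measured on 9 arrays, 1 per animal. The authors' deposited scanner output gives the intensity of each spot, linear in scale, made with Agilent Feature Extraction 10.7.3.1 per the file headers; the processed signal is background-subtracted within each array and unscaled between arrays. The deposited value table held the same intensity at every spot of all 9 arrays (0 spots differed), so its scale is linear and uncentred (column medians 13.1 to 42.6).

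Control and outlier spots were left out, spots of a probe were averaged as log2, and each array's 75th percentile was subtracted. Of 43603 probes, 22 had no usable spot on some array. Probes well above background on at least 3 arrays (27922) were fitted with limma 3.58.1 in R 4.3.3 (HFHSD minus CD, two-sided, no covariates, Benjamini-Hochberg, threshold 0.05). Accessions matched to the RefSeq table of Sscrofa11.1, used for names only, named 6891 probes of 3196 genes and left 36712 unnamed; a gene is read by its brightest probe. The files name no genome build, so no coordinates are given. Probe levels were compared only within a probe. The fit was tested on simulated data.

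The planned normexp alternative (offset 50) used the median signals, since the files hold no mean signal. Groups follow the diet label, and replicate numbers only name arrays. SLPI, the 14 lists and their tests were chosen with earlier results of these data known. Named genes are all tested genes of the WAP, protease and binding partner lists, up to 4 of each other list with the smallest p, and the 5 most and 3 least SLPI-like genes. S100A8, S100A9, CD14, SPP1, TNF, IL1B, IL1A, NFKBIA, TTR and the genes beside SLPI were chosen after their values were seen. The number of arrays limits the precision.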

Additional observations from a re-analysis of the deposited data

Results flagged for a closer look

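Among 69 probes (the 7 of SLPI and 1 for each named gene), 5 had 1 HFHSD array far from the other 5, by Dixon's test at 95%, which chance gives in about 1 of 20 groups; 0 of the 5 were SLPI probes. TNFRSF1A was 3.46 in HFHSD 1, against 2.62 to 2.91 in the other HFHSD arrays. NKG7, a gene of cytotoxic lymphocytes, was -1.28 in HFHSD 1, against -2.79 to -2.40. In HFHSD 4, the HFHSD array with the most SLPI, CD3G was -3.22 against -4.64 to -4.28, FGG, a fibrinogen chain, was -0.56 against -3.43 to -2.49, and NPY1R was -3.23 against -2.62 to -2.40.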

How the results depend on the processing

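SLPI stayed negative in all 21 alternatives, of which 19 used its brightest probe and the others the mean or median of its probes. By these, 20 moved it by less than the SD within groups, and normexp with percentile scaling, at -0.93, moved it further. The deposited value table, 1 of the 20, holds the same intensities and so could not move it. Leaving out 1 array gave -1.68 to -1.21. No paired analysis was possible because the labels give the groups no shared replicate numbers.

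Called probes numbered 344, against 88 with normexp and percentile scaling (71.6% of them higher in HFHSD, 56.4% as reported), 856 with normexp and quantile normalisation, 84 with slide as a fixed block and 677 as a random block, 1205 with array weights, 66 without a filter, 736 with probes detected on all arrays (38.2% higher), 612 with a variance trend, 30 at 0.01, 1211 at 0.1 and 128 without slide 1, an alternative added after seeing the data; leaving out 1 array gave 21 to 359. Of the 127 tested list genes 4 were called, and of all 2613 tested genes 0.498% were called higher and 0.498% lower. The lists were chosen with earlier results of these data known, so nothing is read from the count. It was 2 with normexp and percentile scaling, and 0 with slide as a fixed block, no filter, a threshold of 0.01 or without slide 1. Leaving out 1 array gave 0 to 5.

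Of the 8 genes picked for likeness to SLPI, 1 was picked again with normexp and percentile scaling, 3 with normexp and quantile normalisation, 5 with the percentile over detected probes, 4 with the mean of the SLPI probes, 4 without slide 1 and 2 to 6 when 1 array was left out.

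Signs turned with normexp and percentile scaling for GRN (0.22), TGFB1 (-0.12), SERPINA1 (-0.31), SERPINA3-2 (-0.12), ITIH2 (-0.096), CSTB (0.14), PTGS2 (-0.26), LTF (-0.13), CD3E (-0.37), CD3G (-0.34), LCK (-0.17), CDH1 (-0.24), CLDN7 (0.24) and FGG (-0.23). LCK was -0.052 with quantile normalisation, -0.38 and -0.14 with slide as a fixed and random block and -0.18 with array weights, and CD3E -0.075 and -0.025 with the blocks. NKG7 (0.038) and CLDN7 (0.013) turned with the percentile over detected probes, TGFB1 (-0.0032) and CLDN7 (0.13) with array weights, and CD3E (-0.071), NKG7 (0.079) and LCK (-0.60) without slide 1. Leaving out 1 array gave -0.061 to 0.18 for ANXA2, -0.053 to 0.15 for CD3E, -0.38 to 0.33 for CLDN7, -0.12 to 0.40 for DCN, -0.051 to 2.50 for FGG, -0.28 to 0.25 for LCK, -0.78 to 0.42 for MS4A2, -0.26 to 0.064 for NKG7, -0.22 to 1.88 for TF and -0.30 to 0.33 for TGFB1. The cause was not tested.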
